A study of Mus musculus with 12 samples.

Results

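The Sorcs2 locus on mouse chromosome 5 was described here across 101 of the 188262 accessible regions in the table. They are all regions that start between 35780000 and 36400000 (GRCm38), a window that holds Sorcs2 and its flank on the low-coordinate side. The locus was selected on the measured difference between Phf6 knockout and wild-type libraries, since regions in the body of Sorcs2 stood among the most strongly lowered. The knockout against wild-type values in the window are therefore given as a description, with no test. All 101 regions passed the filter on low counts.

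The 12 libraries, 3 in each of 4 groups, are ATAC-seq libraries, which sample open DNA through the places where the transposase Tn5 can insert adapters. Long-term haematopoietic stem cells (LT-HSC), the cells that sustain blood formation, and multipotent progenitors (MPP), their early descendants, came from male mice. Wild-type (WT) mice were Phf6f/Y Rosa26+/+, so that their Phf6 is floxed and no Cre recombinase is present. Knockout (KO) mice were Phf6-/Y Rosa26+/Cre-ERT2, in which Phf6 is deleted and Rosa26 drives a Cre that tamoxifen activates. For LT-HSC the labels give 20000 sorted cells per library and a time of 8 weeks from tamoxifen, with 3 mice of each genotype. The preparation of MPP and the animals' age are not stated there. On the wording for LT-HSC, replicates were taken as separate animals, and for MPP p-values measure only the spread between the libraries. Cre-ERT2 is carried by every KO and no WT mouse, so its effect and that of Phf6 loss cannot be told apart.

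Sorcs2 encodes SorCS2, a membrane receptor of the VPS10-domain (sortilin) family, which sorts cargo between the cell surface, endosomes and the Golgi. With the p75 neurotrophin receptor it binds the precursor forms of neurotrophins, and it is best known in neurons. Its neighbour Afap1 encodes an actin-binding protein, and Psapl1, a prosaposin-like gene, lies inside Sorcs2. ATAC-seq reads open DNA and not RNA, so none of the values is a level of expression.

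The most accessible region of the window was at the start of Afap1, and its sequence is shown as the reference point of the locus, since it was open in all 12 libraries. The 218 bases from the region's low edge to the base before the annotated gene are given 5′ to 3′ on the + strand (chr5:35893101-35893318, RefSeq GRCm38.p6). Capitals mark CG dinucleotides.
Afap1: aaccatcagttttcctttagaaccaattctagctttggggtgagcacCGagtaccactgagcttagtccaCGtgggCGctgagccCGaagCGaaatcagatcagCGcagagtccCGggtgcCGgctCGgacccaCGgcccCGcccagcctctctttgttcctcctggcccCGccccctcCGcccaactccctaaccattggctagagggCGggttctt
The piece held 14 CG dinucleotides and 61.0% G and C. The medians over the 32851 promoter sequences of the same RefSeq table, cut to the same 218 bases, were 5 CG and 52.8%, and 26.7% of them held as many CG. Short motifs of blood transcription factors were searched in it on both strands, and none of the 6 was found. They were GATAAG for GATA factors (present in 5.67% of the promoter pieces), GGAAGT for ETS factors (17.8%), TGTGGT for RUNX factors (12.3%), TGANTCA for AP-1 (5.91%), CAGCTG as a form of the E-box (11.7%) and TGATTNAT for MEIS and HOX pairs (2.45%). Other forms of these sites were not searched, among them the E-box form CACGTG, which the printed piece holds. The AP-1 and E-box letters read the same on both strands, and no motif holds the letters of another.

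Total counts in accessible regions ran from 22665988 to 48547234 per library, so 1 CPM (the unit of level used here, counts scaled by library size with TMM factors) stood for 22.5 to 48.0 counts. A region at an end of Phf6 does not check the deletion and held 25.3 to 27.3 CPM in WT LT-HSC, and its KO counterpart 26.5 to 28.8 CPM. Markers followed the labels. Of 180 regions at 8 LT-HSC genes 128 were lower and 9 higher in MPP than in LT-HSC of WT, and of 82 regions at 6 MPP genes 54 were higher and 8 lower (edgeR's quasi-likelihood test, Benjamini-Hochberg adjusted), where 35.1% of all regions tested were lower and 34.6% higher. Over all regions tested, 3.28% were called higher and 1.47% lower in KO LT-HSC, and 5.08% and 3.61% in KO MPP. Between genotypes, T cell (10 regions) and B cell (43 regions) genes had 0 called regions in LT-HSC, with 8 of 53 at an unadjusted p under 0.05 and 0 by DESeq2, which gave no adjusted p for 24. In MPP 3 B cell regions were lower. Myeloid (30 regions), endothelial (40 regions), and neuron and glia genes (47 regions) had 2, 1 and 1 called regions in LT-HSC and 2, 3 and 3 in MPP. Of the LT-HSC marker regions 7 were higher and 0 lower in KO LT-HSC (40 and 4 at an unadjusted p under 0.05, 5 and 0 by DESeq2), and their summed CPM was 977 to 1020 in WT LT-HSC and 1080 in each KO library. In KO MPP 21 of the LT-HSC marker regions were higher and 2 lower (16 and 2 by DESeq2). Of the MPP marker regions 3 were higher and 1 lower in KO LT-HSC. The erythroid marker sum was 276 to 286 CPM in WT LT-HSC and 303 to 315 CPM in its KO counterpart, with 2 of 18 regions called, all higher (5 of 18 in MPP, all higher). The B cell sum was 224 to 232 CPM in WT LT-HSC and 215 to 220 CPM in its KO counterpart, the endothelial sum 180 to 191 and 194 to 204 CPM, and the MPP marker sum 333 to 343 and 348 to 353 CPM. In MPP the sums of 4 lists also did not overlap between genotypes, in the same directions. For LT-HSC genes they were 613 to 649 CPM in WT and, in the KO libraries, 657 to 668 CPM. They were 249 to 273 and 286 to 303 CPM for erythroid, 176 to 189 and 191 to 195 CPM for endothelial, and 248 to 266 and 236 to 244 CPM for B cell genes. The part of these differences in the values of the Sorcs2 locus was not tested.

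Sorcs2 spans 381 kb (36017180 to 36398197) and held 60 of the 101 regions. Afap1 (35893319 to 36003923) held 19. No region lay on Psapl1 (36204021 to 36206568), and the nearest began 1821 bp from it. Distances are counted from the high-coordinate end of Sorcs2, where the gene starts, as background knowledge, since the gene table gives no strand. Regions were 402 to 1175 bp long (median 446 bp), and their mean level over the 12 libraries was 0.289 to 32.5 CPM (median 1.56 CPM). The locus is thus weakly open at most places, and 66 of 101 regions reached a mean of 1 CPM.

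In LT-HSC, accessibility across Sorcs2 was lower in KO than in WT at most regions. The most negative values lay mostly between 256.1 and 329.3 kb from the start. Of the 60 Sorcs2 regions, 55 had a negative log2 fold change (KO over WT), 14 were at -1 or lower and 0 at 1 or higher. Over all 186373 regions tested, the shares were 50.2%, 1.61% and 0.284%. The median log2 fold change of the 60 was -0.59, against 0.00 over all regions tested. All 3 KO libraries lay below all 3 WT libraries at 35 of the 60, and above at 0; the shares over all regions were 10.8% below and 13.4% above. Since this contrast chose the locus, nothing is read from these counts. In bulk samples, fewer cells with the region open and less openness per cell cannot be told apart.

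MPP gave a similar picture. Of the 60 Sorcs2 regions, 52 had a negative log2 fold change, 12 were at -1 or lower and 0 at 1 or higher, with a median of -0.53 (-0.01 over all regions tested). The KO libraries all lay below the WT libraries at 36 and above at 0. Over all regions tested, 51.3% were negative, 1.16% at -1 or lower, 0.426% at 1 or higher, 13.7% below and 14.3% above. In both populations the KO libraries lay below the WT libraries at 26 of the 60 Sorcs2 regions, and at 3.52% of all regions tested.

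**Figure D1:**
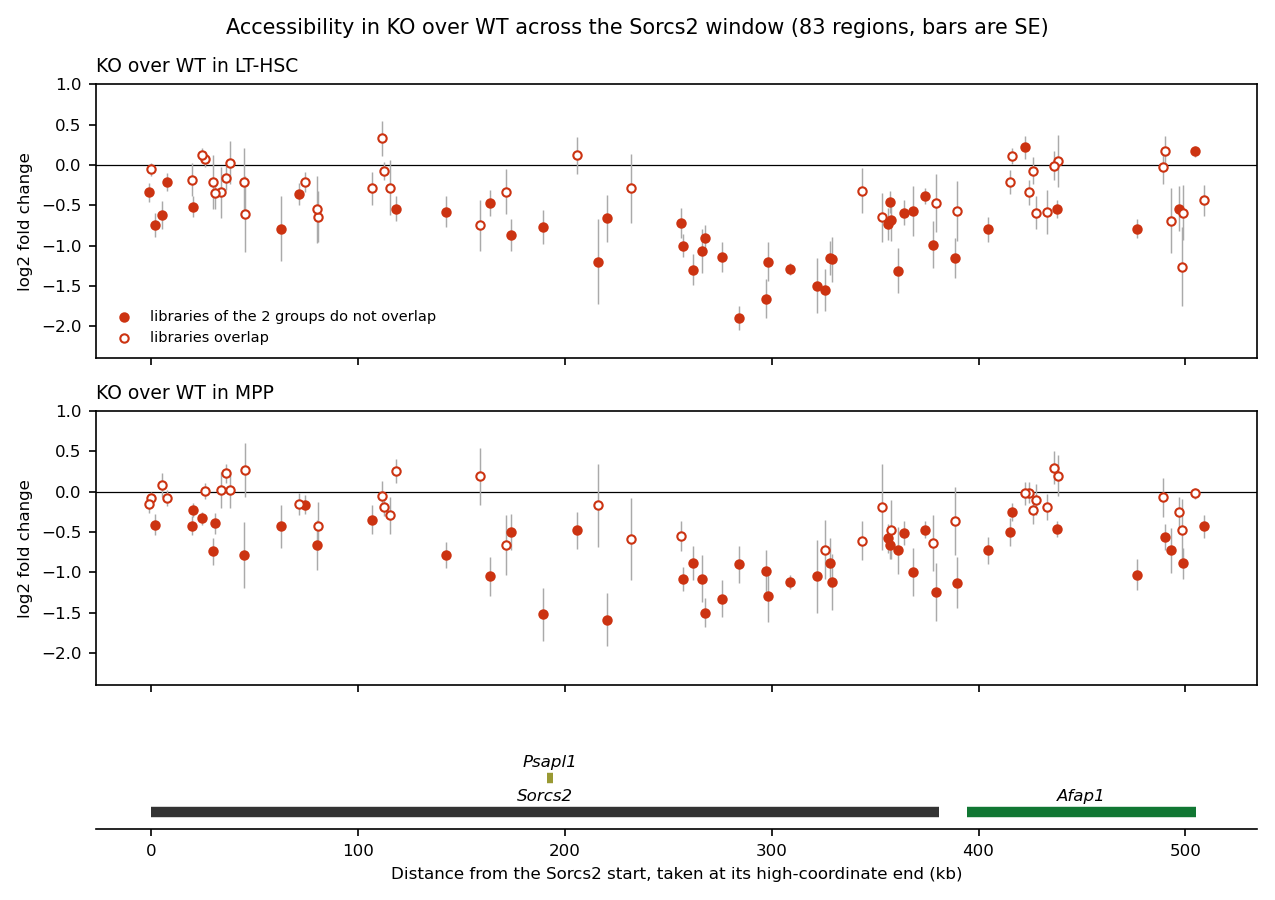
Log2 fold change of KO over WT (vertical axis, bars are SE) at the 83 regions of the window on Sorcs2, on Afap1 or between genes against distance from the start of Sorcs2 in kb, in LT-HSC (top) and MPP (bottom), with gene positions drawn to scale. Filled points are regions where the 3 KO and 3 WT libraries do not overlap; in LT-HSC the most negative value, -1.90, lies 284.3 kb from the start, and the region over the start itself is at -0.05.

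The negative values formed an unbroken run. From 216.1 to 415.0 kb from the start (35982999 to 36182296, 199.3 kb, which takes in the far end of Sorcs2 and the nearest end of Afap1), 32 consecutive regions had negative log2 fold changes in both populations. Without WT MPP 3 the longest such run was 17 regions (36054490 to 36177799), and without any other single library 27 to 32. The medians of the 32 were -0.94 in LT-HSC and -0.81 in MPP. Within it, 14 consecutive regions between 36068686 and 36142290 had all KO below all WT libraries in LT-HSC. In MPP 10 consecutive regions between 36076269 and 36141550 did.

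The strongest region of Sorcs2 was also one of those with the largest differences. It lies 308.8 kb from the start (36089175 to 36089661) and overlaps one end of the long noncoding RNA gene Gm52811 (36084983 to 36089669). It held 39.7, 39.5 and 38.7 CPM in WT LT-HSC and 17.0, 16.1 and 15 CPM in KO LT-HSC. In MPP it held 23.8, 22.6 and 23.3 CPM in WT and 12.9, 10.3 and 9.19 CPM in KO. The groups did not overlap in either population, and the log2 fold changes were -1.29 ± 0.08 (SE) in LT-HSC and -1.12 ± 0.09 in MPP.

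The largest difference in LT-HSC was 284.3 kb from the start (36113695 to 36114140). This region held 8.97, 9.16 and 8.10 CPM in WT LT-HSC and 2.64, 1.70 and 2.67 CPM in KO LT-HSC, a log2 fold change of -1.90 ± 0.15. In MPP it was weak, at 1.28, 1.19 and 0.913 CPM in WT and 0.700, 0.543 and 0.620 CPM in KO (-0.90 ± 0.23). The KO libraries lay below the WT libraries in both populations, and the smaller value in MPP was not tested against that in LT-HSC.

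The regions between and beside them were lower in KO as well. At 267.8 kb (36130036 to 36130852), WT LT-HSC held 6.19, 5.51 and 5.36 CPM and KO LT-HSC 3.00, 2.58 and 3.61 CPM (-0.90 ± 0.15). In MPP the values were 3.88, 2.75 and 3.42 CPM in WT and 1.28, 1.31 and 0.943 CPM in KO (-1.50 ± 0.18). Neither population showed any overlap. At 298.1 kb (36099662 to 36100511), WT LT-HSC held 2.90, 3.12 and 2.84 CPM and KO LT-HSC 1.51, 1.20 and 1.07 CPM (-1.20 ± 0.24). In MPP the values were 0.852, 0.938 and 1.05 CPM in WT and 0.506, 0.0741 and 0.620 CPM in KO (-1.29 ± 0.33). Again every KO library lay below every WT library, and KO MPP 2 was the lowest by far. Without KO MPP 2 the log2 fold change in MPP was -0.71.

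Other regions far from the start of Sorcs2 gave like values. At 276.1 kb the log2 fold changes were -1.14 ± 0.19 in LT-HSC and -1.33 ± 0.23 in MPP. At 256.9 kb they were -1.0 ± 0.14 and -1.08 ± 0.15, at 261.8 kb -1.30 ± 0.19 and -0.89 ± 0.21, and at 328.3 kb -1.15 ± 0.21 and -0.88 ± 0.30. In all of these 4 regions KO lay below WT without overlap in both populations. In the middle of the gene, 189.4 kb from the start and next to Psapl1, the region at 36208389 to 36209173 held 3.01 ± 0.180 CPM (SD, n = 3) in WT LT-HSC and 1.75 ± 0.232 CPM in KO LT-HSC, and 0.798 ± 0.226 and 0.284 ± 0.179 CPM in MPP. Its log2 fold changes were -0.77 ± 0.21 and -1.52 ± 0.33.

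**Figure D2:**
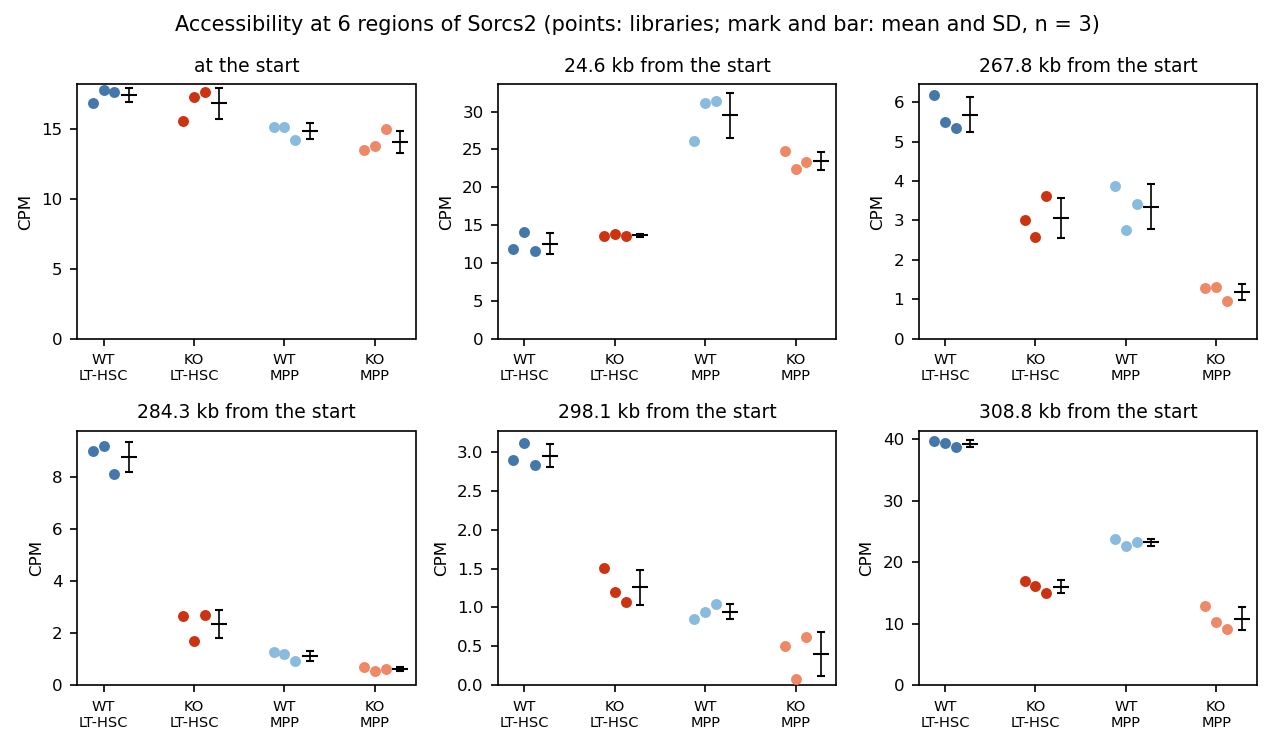
CPM (vertical axis, from 0) in each of the 12 libraries at 6 regions of Sorcs2 (the 3 strongest, and 3 of the most negative), by group, with the mean and SD of 3 libraries beside the points. KO points lie below WT points at the 4 regions between 267.8 and 308.8 kb from the start and overlap them at the start itself.

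The region over the start of the gene differed little between genotypes. This region (36397971 to 36398396) held 16.9, 17.8 and 17.7 CPM in WT LT-HSC and 15.6, 17.3 and 17.7 CPM in KO LT-HSC. In MPP it held 15.2, 15.2 and 14.2 CPM in WT and 13.5, 13.8 and 15 CPM in KO. The genotypes overlapped in both populations, with log2 fold changes of -0.05 ± 0.08 and -0.08 ± 0.08. The next region, 2.0 kb from the start (36396026 to 36396457), held 3.50, 3.17 and 3.76 CPM in WT LT-HSC and 2.34, 1.95 and 1.87 CPM in KO LT-HSC. Here KO lay below WT without overlap in both populations (-0.74 ± 0.15 in LT-HSC and -0.41 ± 0.13 in MPP). Another strong region, 24.6 kb from the start (36373241 to 36373913), held 12.5 ± 1.36 CPM in WT LT-HSC and 13.6 ± 0.137 CPM in KO LT-HSC, which overlapped. In MPP it held 26.1, 31.1 and 31.4 CPM in WT and 24.8, 22.4 and 23.3 CPM in KO, where every KO library was lower (-0.33 ± 0.08).

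Of the 25 Sorcs2 regions within 127 kb of the start, KO lay below WT at 7 in LT-HSC, at 11 in MPP and at 3 in both. The shares over all regions tested were 10.8%, 13.7% and 3.52%. Thus 4 had KO below WT in LT-HSC with overlap in MPP, and 8 had KO below WT in MPP with overlap in LT-HSC. At 5.1 kb (36392897 to 36393370) WT LT-HSC held 2.90, 2.95 and 2.66 CPM and KO LT-HSC 1.95, 1.56 and 2.05 CPM (-0.62 ± 0.17). In MPP the genotypes overlapped (2.85 ± 0.529 and 3.04 ± 0.0709 CPM). At 118.3 kb (36279353 to 36280399) the log2 fold changes were -0.54 ± 0.15 without overlap in LT-HSC and 0.26 ± 0.15 with overlap in MPP. Whether the populations differ at these regions was not tested. The largest positive value at Sorcs2 among regions with a mean of at least 1 CPM was 0.33 ± 0.22, at 111.7 kb in LT-HSC (0.21 without KO LT-HSC 3), and the genotypes overlapped there.

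Across the 60 Sorcs2 regions, the log2 fold changes in LT-HSC and in MPP, which share no library, had a Pearson r of 0.523 and a Spearman rho of 0.554. The regions share libraries and depth within each population, so this is a description across regions.

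**Figure D3:**
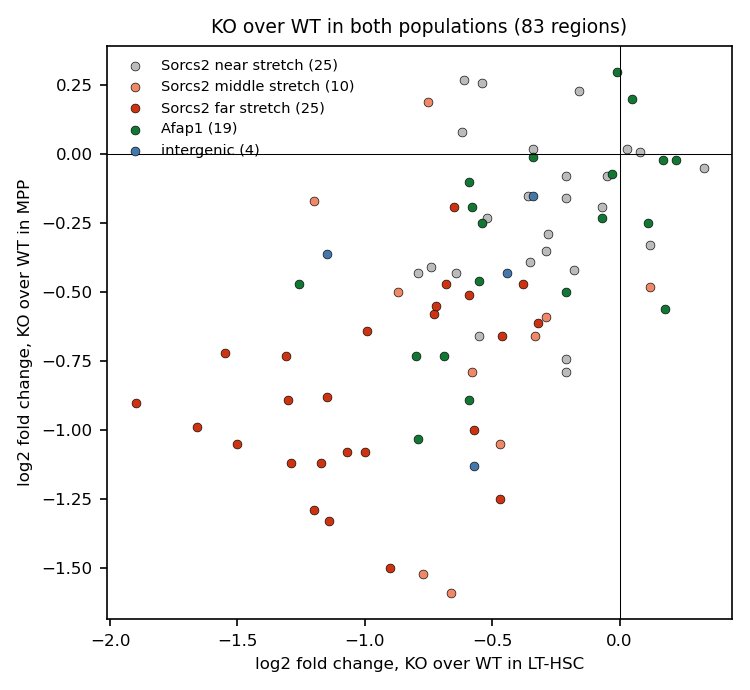
Log2 fold change of KO over WT in MPP (vertical axis) against LT-HSC (horizontal axis) at the same 83 regions, coloured by position. The 25 regions of Sorcs2 over 254 kb from its start all lie below 0 on both axes, and none of these regions is above 0.33 in LT-HSC.

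When Sorcs2 was divided into 3 equal stretches of 127 kb, the median log2 fold changes were more negative in each farther stretch. The near stretch (0 to 127 kb) held 25 regions with medians of -0.28 in LT-HSC and -0.19 in MPP, and none at -1 or lower. The middle stretch (127 to 254 kb) held 10 regions with medians of -0.62 and -0.63. The far stretch (254 to 381 kb) held 25 regions with medians of -1.0 and -0.89, of which 13 in LT-HSC and 9 in MPP were at -1 or lower. All 25 far regions had negative values in both populations, and KO lay below WT without overlap at 22 of them in LT-HSC, at 19 in MPP and at 18 in both (over all regions tested 10.8%, 13.7% and 3.52%). Without WT LT-HSC 3 or without WT MPP 3, 24 of the 25 were negative in the population concerned. Within the far stretch the values did not follow the distance. The run of 14 regions from 256.1 to 329.3 kb had medians of -1.18 in LT-HSC and -1.06 in MPP. In the rest of the far stretch, farther from the start, values ran from -1.31 to -0.32 in LT-HSC and from -1.25 to -0.19 in MPP.

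Summed over its 25 regions, the far stretch held 111, 115 and 113 CPM in WT LT-HSC and 59.5, 53.6 and 56.6 CPM in KO LT-HSC. In MPP it held 61.1, 57.4 and 59.5 CPM in WT and 36.3, 30.6 and 28.5 CPM in KO. The KO mean was 0.499 of the WT mean in LT-HSC and 0.536 in MPP, and the level of KO LT-HSC (56.6 ± 2.93 CPM) came near that of WT MPP (59.3 ± 1.86 CPM), with overlapping libraries. The near stretch differed far less, with 97.6 ± 3.20 CPM in WT LT-HSC and 88.7 ± 2.21 CPM in KO LT-HSC (ratio 0.909) and 133 ± 4.49 and 117 ± 2.04 CPM in MPP (0.875). The middle stretch held 17.6 ± 0.848 and 11.9 ± 1.19 CPM in LT-HSC (0.677) and 10.9 ± 0.851 and 6.51 ± 0.486 CPM in MPP (0.598).

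Over all 60 Sorcs2 regions the order of the groups was WT LT-HSC (224, 235 and 227 CPM), WT MPP (200, 204 and 206 CPM), KO LT-HSC (160, 152 and 160 CPM) and KO MPP (162, 152 and 151 CPM). The libraries of the first 3 groups in this order did not overlap with each other. The 2 KO groups overlapped, with means of 157 ± 4.75 and 155 ± 6.18 CPM.

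**Figure D4:**
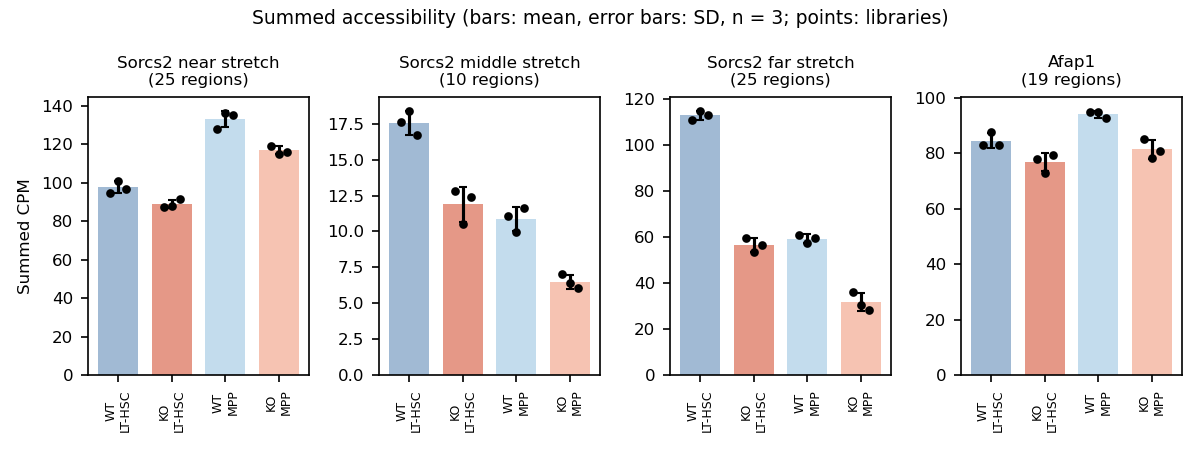
Summed CPM (vertical axes, from 0, each with its own scale) over the regions of the 3 stretches of Sorcs2 and of Afap1, with bars for the mean of 3 libraries, error bars for the SD and points for libraries. The far stretch shows the widest gap between WT and KO (113 against 56.6 CPM in LT-HSC), the near stretch a narrow one (97.6 against 88.7 CPM).

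Afap1 showed smaller differences in the same direction. Its 19 regions had medians of -0.34 in LT-HSC and -0.25 in MPP, with KO below WT at 4 and 8 of them. Over all regions tested, the shares with KO below WT were 10.8% and 13.7%. Summed CPM in KO was 0.909 of WT in LT-HSC and 0.865 in MPP.

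The most negative Afap1 value in MPP was inside the gene. The region at 35921556 to 35922051 held 10.1, 11.7 and 11.5 CPM in WT LT-HSC and 6.80, 5.31 and 7.13 CPM in KO LT-HSC. In MPP it held 2.25, 2.04 and 2.71 CPM in WT and 1.52, 0.938 and 1.02 CPM in KO. Genotypes did not overlap in either population, with log2 fold changes of -0.79 ± 0.12 and -1.03 ± 0.19. In LT-HSC 2 other Afap1 regions had lower values, -0.80 ± 0.15 at 35993372 and -1.26 ± 0.49 at 35899511, where the genotypes overlapped. The region at 35960150 to 35960576, among the 5 strongest of the window, held 9.56 ± 0.700 CPM in WT LT-HSC and 6.51 ± 0.719 CPM in KO LT-HSC and 17.5 ± 0.621 and 12.8 ± 1.99 CPM in MPP, also without overlap. The Afap1 start region, whose sequence is given with its CG dinucleotides, held 29.1, 30.2 and 25.8 CPM in WT LT-HSC and 32.6, 31.2 and 31.9 CPM in KO LT-HSC (0.17 ± 0.07). It was thus one of 2 Afap1 regions where all KO libraries lay above all WT libraries in LT-HSC, as at 13.4% of all regions tested. The other had a log2 fold change of 0.22 ± 0.14. In MPP the Afap1 start did not part the genotypes (35.1 ± 2.40 and 34.6 ± 1.06 CPM). No region of the window had KO above WT there, against 14.3% of all regions tested.

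Beyond the window the medians were nearer 0. The 67 regions in the 500 kb below it had medians of -0.14 in LT-HSC and -0.17 in MPP, and the 75 regions in the 500 kb above it had medians of -0.04 and -0.07. KO lay below WT at 8 of the 67 in LT-HSC and 18 in MPP, and at 10 and 14 of the 75, against 10.8% and 13.7% of all regions tested. The lowest values were -1.36 below the window and -1.10 above it in LT-HSC, and -1.15 and -1.12 in MPP. At the high edge of the window, the log2 fold changes (LT-HSC first) were -0.34 and -0.15 at the last region inside and -0.40 and -0.77 at the first outside, so that edge is not an edge of the genotype difference in these values. At the low edge they were -0.13 and -0.33 at the first region inside and 0.01 and -0.44 at the last outside. In MPP the low edge was thus not an edge in these values either.

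The difference between the populations was not used to choose the locus, although the same libraries enter. The locus was chosen for KO levels below WT levels, and those levels are the ones compared here. The counts in WT and in KO are thus not independent of the choice, and its part in them was not tested. In WT, 33 of the 101 regions were higher and 44 lower in MPP than in LT-HSC (edgeR's quasi-likelihood test, Benjamini-Hochberg adjusted p under 0.05), and in KO 34 were higher and 36 lower. Over all regions tested, 34.6% were higher and 35.1% lower in WT, and 33.3% and 34.4% in KO. Position within Sorcs2 parted the directions. In the far stretch 1 region was higher and 20 were lower of 25 in WT, and 0 and 14 in KO, where DESeq2 gave 0 and 14 and an unadjusted p under 0.05 gave 0 and 15. In the near stretch 13 were higher and 6 lower of 25 in WT, and 16 and 5 in KO. The middle stretch had 1 higher and 5 lower of 10 in each genotype.

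**Figure D5:**
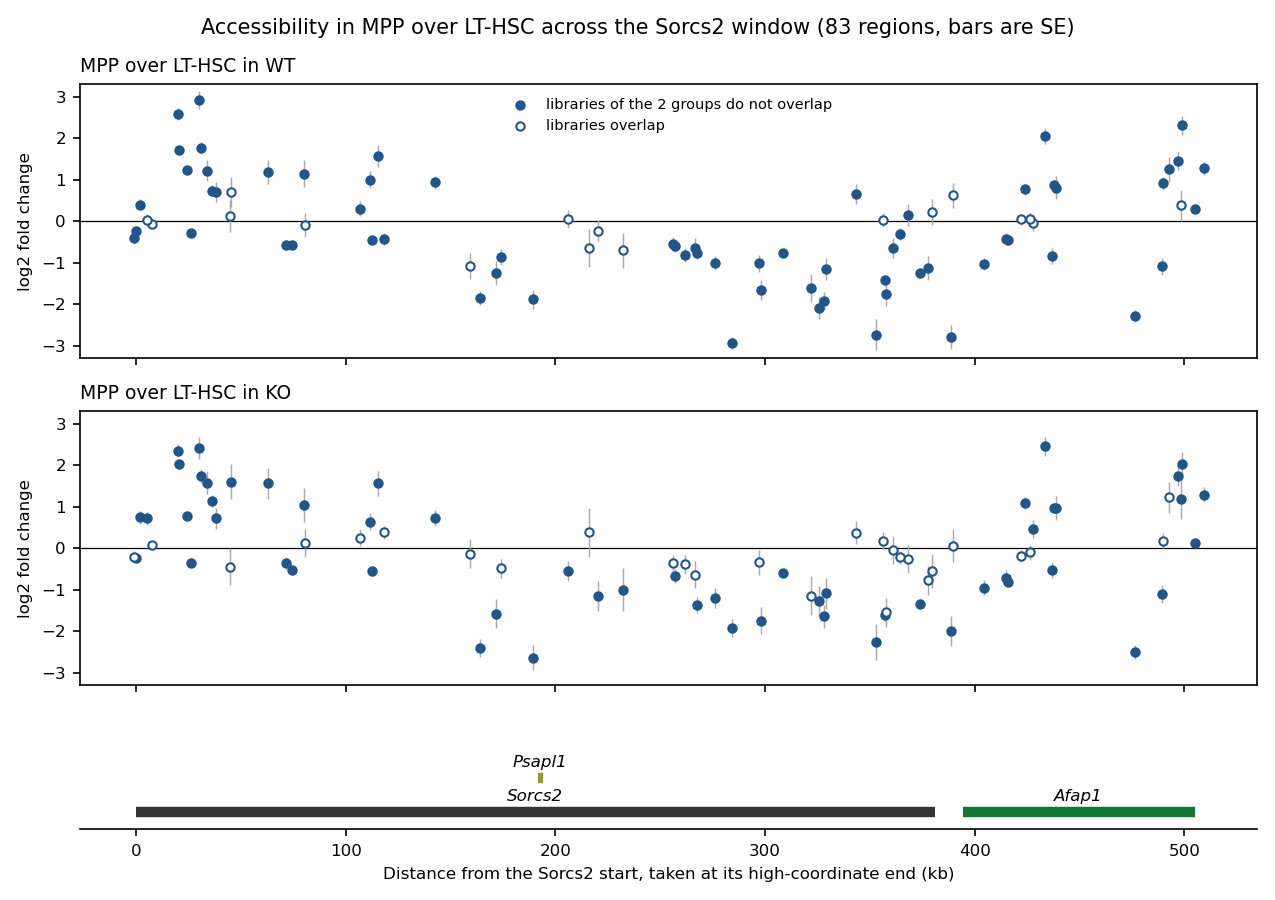
Log2 fold change of MPP over LT-HSC (vertical axis, bars are SE) at the same 83 regions against distance from the start of Sorcs2 in kb, in WT (top) and KO (bottom), with gene positions drawn to scale. Filled points are regions where the 3 MPP and 3 LT-HSC libraries do not overlap; near the start they reach 2.93 in WT, and from about the middle of Sorcs2 to its far end they are mostly below 0.

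In the far stretch, the region 284.3 kb from the start had the most negative population difference in WT of all Sorcs2 regions. It was 8.75 ± 0.562 CPM in WT LT-HSC and 1.13 ± 0.190 CPM in WT MPP, with no overlap and a log2 fold change of -2.93 ± 0.15 (edgeR's quasi-likelihood test, adjusted p = 5.15e-17). In KO the same comparison gave -1.93 ± 0.21 (adjusted p = 1.98e-09 in that test), and the 2 values were not tested against each other. The LT-HSC levels of this region also enter its KO over WT value, the most negative of the window in LT-HSC. At the strongest region, 308.8 kb from the start, the log2 fold changes were -0.76 ± 0.08 in WT and -0.59 ± 0.09 in KO (adjusted p = 5.02e-10 and 8.91e-07). In the middle stretch, the regions at 189.4 kb and 164.0 kb were lower in MPP by log2 fold changes of -1.88 ± 0.22 and -1.84 ± 0.17 in WT and -2.64 ± 0.30 and -2.41 ± 0.21 in KO.

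Near the start the direction turned. The region 30.0 kb from the start (36367902 to 36368404) held 0.315, 0.478 and 0.405 CPM in WT LT-HSC and 2.76, 3.69 and 2.67 CPM in WT MPP. In KO it held 0.330, 0.389 and 0.312 CPM in LT-HSC and 1.91, 1.83 and 1.81 CPM in MPP. It was barely open in LT-HSC of both genotypes, and it rose in MPP by 2.93 ± 0.22 in WT and 2.41 ± 0.26 in KO (edgeR's quasi-likelihood test, adjusted p = 2.54e-13 and 8.69e-10). The neighbouring regions at 20 and 20.5 kb rose by 2.59 ± 0.15 and 1.73 ± 0.10 in WT and by 2.35 ± 0.16 and 2.02 ± 0.12 in KO. The strong region at 24.6 kb rose from 12.5 to 29.5 CPM in WT (1.24 ± 0.08) and from 13.6 to 23.5 CPM in KO (0.78 ± 0.09). The start itself fell slightly in MPP, by 0.23 ± 0.08 in WT and 0.25 ± 0.08 in KO on the log2 scale (adjusted p = 0.0103 and 0.00637).

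Afap1 held regions of both directions. Of its 19 regions 9 were higher and 6 lower in WT MPP, against 34.6% and 35.1% of all regions tested. The Afap1 region at 35921556 was lower in MPP by -2.27 ± 0.13 in WT and -2.51 ± 0.17 in KO, while that at 35964655 to 35965220 was higher by 2.05 ± 0.19 and 2.45 ± 0.22. The Afap1 start was higher in MPP by 0.31 ± 0.07 in WT (edgeR's quasi-likelihood test, adjusted p = 0.000172) and by 0.12 ± 0.07 in KO (adjusted p = 0.137, or 0.0369 among regions with at least 1 CPM in 3 libraries and 0.0401 with the compared groups alone). Across the 60 Sorcs2 regions, the population differences in WT and in KO, which share no library, had a Pearson r of 0.926 and a Spearman rho of 0.897, again as a description.

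Genes of the same family, of its ligands and co-receptors and of endosomal sorting were compared between genotypes through the regions on or within 10 kb of 27 of them, 244 regions in all. In LT-HSC 7 of these regions were higher and 6 lower in KO (edgeR's quasi-likelihood test, Benjamini-Hochberg adjusted), against 3.28% and 1.47% of all regions tested. In MPP 16 were higher and 11 lower, against 5.08% and 3.61%. The 4 other VPS10 receptors had few called regions. Of their 64 regions 0 passed in LT-HSC (edgeR; 4 higher and 4 lower at an unadjusted p under 0.05, 0 by DESeq2, which gave no adjusted p for 34). In MPP 2 regions of Sorl1, which encodes SorLA, were lower and 1 region of Sort1, which encodes sortilin, was higher. The first Sorl1 region (chromosome 9, 42022116 to 42022693) fell from 2.93 ± 0.838 to 1.60 ± 0.255 CPM (-0.90 ± 0.20, adjusted p = 0.00448; 0.0807 without WT MPP 2 and 0.0551 without KO MPP 2). The call of the second (adjusted p = 0.0163) was lost without WT MPP 2 (0.142) or KO MPP 3 (0.14). That of Sort1 (0.51 ± 0.15, adjusted p = 0.031) was lost by DESeq2 (0.0598) and when any MPP library except KO MPP 1 was left out (0.0527 to 0.12). Sorcs1 and Sorcs3, the closest relatives, had 0 called regions of 25 between genotypes in either population (6 in LT-HSC and 5 in MPP at an unadjusted p under 0.05, 0 by DESeq2, which gave no adjusted p for 17 and 16). A Sorcs1 region passed in LT-HSC without WT LT-HSC 3 (adjusted p = 0.0405) and with a replicate block (0.0385). A Sorcs3 region passed in MPP without KO MPP 1 (adjusted p = 0.0364), with total-count scaling or the filter of 1 CPM (0.0414 each) and with the block (0.0451). Between populations, 9 of 9 regions of Sorcs1 were lower in MPP in WT and in KO, and 14 of 16 of Sorcs3 in each. Over all regions tested, 35.1% were lower in WT and 34.4% in KO. Summed CPM over Sorcs1 was 29.9 ± 2.29 in WT LT-HSC and 8.00 ± 0.574 in WT MPP.

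Among the neurotrophins, their receptors and the other ligand genes Grn and Pdgfb (10 genes, 93 regions), 0 regions were higher and 3 lower in KO LT-HSC (edgeR; 1 and 5 at an unadjusted p under 0.05, 0 and 1 by DESeq2, which gave no adjusted p for the other 2 lower ones), and 5 were higher and 6 lower in KO MPP (3 and 3 by DESeq2, with no adjusted p for 1 and 3). The edgeR shares over all regions tested were 3.28% higher and 1.47% lower in KO LT-HSC, and 5.08% and 3.61% in KO MPP. The lower regions of these genes in MPP included 3 of 14 regions of Ntrk2, the gene of TrkB, the receptor of brain-derived neurotrophic factor. The strongest of them (chromosome 13, 59011471 to 59011924) held 11.1, 9.86 and 10.9 CPM in WT MPP and 7.24, 7.08 and 5.53 CPM in KO MPP, without overlap. Its log2 fold change was -0.69 ± 0.11 (edgeR's quasi-likelihood test, adjusted p = 0.00018). A weaker Ntrk2 region (58902279 to 58902734) was lower in both populations, by -1.08 ± 0.26 in LT-HSC and -1.62 ± 0.28 in MPP (edgeR's adjusted p = 0.0128 and 0.00058). In LT-HSC its call was lost without WT LT-HSC 1 (0.0571), KO LT-HSC 1 (0.0601) or KO LT-HSC 3 (0.0571). A region of Ntrk3, the gene of the neurotrophin-3 receptor TrkC, was lower in KO MPP (2.01 ± 0.513 to 1.01 ± 0.120 CPM, -1.03 ± 0.22, adjusted p = 0.00302).

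Among 13 genes of endosomal sorting (87 regions), which move VPS10 receptors between endosomes and the Golgi, 7 regions were higher and 3 lower in KO LT-HSC and 10 higher and 3 lower in KO MPP. DESeq2 called 7 higher and 0 lower in LT-HSC and 8 and 1 in MPP, and of the lower regions it gave no adjusted p for 2 in LT-HSC and 1 in MPP. Over all regions tested, edgeR called 3.28% higher and 1.47% lower in KO LT-HSC, and 5.08% and 3.61% in KO MPP. A region of Ap1m1, a subunit of the AP-1 clathrin adaptor (chromosome 8, 72239865 to 72240313), held 57.1, 57.4 and 59.0 CPM in WT LT-HSC and 73.1, 72.2 and 70.7 CPM in KO LT-HSC. In MPP it held 62.9, 61.0 and 57.1 CPM in WT and 74.2, 75.5 and 73.9 CPM in KO. KO lay above WT in both populations, by 0.32 ± 0.05 in LT-HSC and 0.30 ± 0.05 in MPP on the log2 scale (edgeR's quasi-likelihood test, adjusted p = 0.000785 and 0.000649). Vps35, the core of the retromer complex, had a region that rose in KO MPP from 50.4 ± 5.47 to 62.5 ± 2.16 CPM (0.31 ± 0.07, adjusted p = 0.00339). The lower regions were on sorting nexin genes, whose products work with retromer: 3 on Snx6 in LT-HSC, and 2 on Snx6 (which also had 2 higher ones) and 1 on Snx5 in MPP. A Snx6 region fell from 1.69 ± 0.303 to 0.604 ± 0.177 CPM in LT-HSC (-1.51 ± 0.26, adjusted p = 0.000805, with none given by DESeq2), and the Snx5 region from 28.6 ± 1.89 to 22.1 ± 1.75 CPM in MPP (-0.37 ± 0.08, adjusted p = 0.00231).

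The counts over these 27 genes moved when single libraries were left out. In LT-HSC the 7 higher regions became 3 without WT LT-HSC 1, KO LT-HSC 1 or KO LT-HSC 2 and 2 without KO LT-HSC 3, and the 6 lower became 1 without KO LT-HSC 1 and 2 without WT LT-HSC 1, WT LT-HSC 2 or KO LT-HSC 2. In MPP the 16 higher became 6 without WT MPP 3 or KO MPP 2 and 5 without KO MPP 3, and the 11 lower became 7 without WT MPP 2 or KO MPP 2.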

How the data were processed

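The authors deposited 1 table of raw counts, with no normalization, over a joint set of accessible regions for the 12 libraries. The build is GRCm38, and the tools named are MACS2 2.1.1, featureCounts, DESeq2 1.22.1, Bowtie2 and cutadapt, per the submitters' processing notes. No setting or filter is stated there, and reads outside the regions are not seen in such a table. All 12 columns matched a sample through its label.

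A model of edgeR 4.0.16 (R 4.3.3) was fitted to the counts of all 188262 regions, with 1 mean per group and TMM factors. filterByExpr removed 1889 regions, so 186373 were tested. P-values of the 2-sided quasi-likelihood F test were adjusted over all regions tested by Benjamini-Hochberg, per comparison, with a threshold of 0.05. CPM were computed from the counts with the same factors, and the biological coefficient of variation was 8.17%. Between replicates the log2 CPM correlated at 0.971 to 0.982, and chi-square over its degrees of freedom was 1.56 to 3.19, so replicates differed by more than counting noise. The functions were tested on simulated data. Regions were placed on RefSeq genes of GRCm38, with 1-based coordinates. The gene table has no strand, so the start of Sorcs2 was taken at its high-coordinate end as background knowledge.

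Regions were named where they lay nearest to a gene end, were among the 5 with the highest level, or, with a mean of at least 1 CPM, had the largest log2 fold changes (6 negative and 4 positive per genotype comparison, 4 called per direction and population comparison), and for each list of related genes up to 4 regions with the lowest p. Related genes were VPS10 receptors, ligands and co-receptors, and endosomal sorting. Marker lists were LT-HSC, MPP, T cell, B cell, myeloid, erythroid, endothelial, and neuron and glia. The members and the lists were chosen with earlier results of these data known. Alternatives were RLE and total-count scaling, DESeq2 1.42.0, the compared groups alone, no filter, a minimum of 1 CPM in 3 libraries, a replicate block and each library left out. Regions of the window and related genes whose values are not given singly are not reported here beyond the totals they enter.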

Additional observations from a re-analysis of the deposited data

How the results depend on the processing

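In the Sorcs2 window the longest run of negative regions fell from 32 to 17 without WT MPP 3. Counts of regions without overlap and values per stretch were not run through all 13 alternatives. None of the window medians and totals that follow changed direction or moved by over 1.5 times under any of the 13. The median log2 fold change of the 60 Sorcs2 regions ran from -0.66 to -0.53 in LT-HSC and from -0.59 to -0.49 in MPP, and the number at -1 or lower from 12 to 15 and from 9 to 14. In MPP over LT-HSC, 28 to 34 regions of the window were higher and 38 to 45 lower in WT, and 29 to 35 and 31 to 37 in KO. Counts over the 27 related genes moved more. In LT-HSC, total-count scaling and the filter of at least 1 CPM in 3 libraries each left 4 higher regions, and DESeq2 called 1 lower region but gave no adjusted p for 4 of the 6. In MPP DESeq2 called 6 lower regions, with no adjusted p for 4 of the 11. Leaving out single libraries gave 2 to 5 higher and 1 to 6 lower regions in LT-HSC, and 5 to 17 and 7 to 14 in MPP; fewer samples enter those fits, and the cause was not tested otherwise.

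Libraries share replicate numbers across groups, but the labels do not say what a number stands for. Deviations of same-numbered libraries from their group means had r from -0.0367 to 0.033 between genotypes, where 2 of 6 comparisons were highest for the own number, and from 0.0537 to 0.114 between populations, where 6 of 6 were. The numbers were not taken to pair the libraries. With a replicate block the Sorcs2 medians were -0.58 and -0.52, with 14 and 13 regions at -1 or lower. The window then had 34 higher and 45 lower regions in WT and 35 and 37 in KO, and the related genes 9 and 7 in LT-HSC and 16 and 14 in MPP. Total-count scaling moved the median of all regions by -0.06 in LT-HSC and -0.03 in MPP. At 1 CPM, 22.5 to 48.0 counts limit the precision of the 35 regions of the window with a lower mean.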

Other observations

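Counts summed over the regions inside each gene body were used to rank 8933 protein-coding genes with at least 3 such regions by their likeness to Sorcs2, as Pearson's r of log2 CPM over the 12 libraries, which share the 4 groups. The most alike were Med23 (r = 0.932, 4 regions), Adamtsl3 (0.929, 24 regions), Epm2a (0.916, 6 regions), Cfap57 (0.914, 14 regions) and Pamr1 (0.912, 9 regions). Summed CPM over Pamr1 was 12.1 in WT LT-HSC, 10.4 in WT MPP, 8.83 in KO LT-HSC and 8.48 in KO MPP, and over Adamtsl3 49.8, 47.8, 43.9 and 42.9. Med23, Epm2a and Cfap57 differed from this order, with KO MPP above KO LT-HSC. Med23 held 6.67, 5.99, 5.07 and 5.35 CPM, Epm2a 27.5, 26.9, 24 and 24.3 CPM, and Cfap57 24.5, 23.7, 21.2 and 21.7 CPM. A likeness of levels says nothing of a shared function.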
